A study of Mus musculus with 6 samples.

Results

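The aquaporins described here are 10 mouse genes, Aqp1 to Aqp9 and Aqp11, and their 15 array probes were those whose gene name in the array design equals one of these symbols, out of 55681 probes for 36282 gene symbols. Of the genes, 5 had 1 probe and 5 had 2 probes. RNA came from prostate cells of 6-day-old male FVB/N mice carrying the 11.5kb-GFP transgene, in which the s-SHIP promoter drives GFP, and the mice received no treatment. Cells negative for the lineage antigens Ter119, CD31 and CD45 and positive for Sca-1 and CD49f, called LSC, were sorted into GFP+ and GFP- cells, with 3 independent samples of each. Both populations thus carried the transgene and the same surface phenotype and differed in the reporter. In this line vascular smooth muscle cells also express GFP according to the study, which found them to have little or no Sca-1 and CD49f, and it placed stromal cells in a fraction without CD49f and described the LSC gate as epithelial. How many mice went into a sample was not given in the sources used here.

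Aquaporins are membrane channels that let water cross cell membranes along osmotic gradients. The classical members pass mainly water, the aquaglyceroporins Aqp3, Aqp7 and Aqp9 also pass glycerol and other small solutes, and Aqp11 belongs to a divergent branch found largely in intracellular membranes. In glands and in the male reproductive tract they are known for their part in the movement of fluid across epithelia.

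Values are log2 signals relative to the 75th percentile of the same array, so that arrays of different overall brightness can be compared, and a probe counted as detected where the scanner software marked it well above background. Levels of different probes are not comparable, because each probe binds with its own efficiency. A gene was represented by the probe with the highest mean signal over the 6 arrays, with any other probe given beside it. Between 36651 and 42123 probes were well above background on an array, no spot was saturated, and r across probes lay between 0.961 and 0.985 for pairs of arrays. The basal epithelial markers Krt5, Krt14 and Trp63 were well above background on all 6 arrays, whereas the probe of Inpp5d, the SHIP1 gene, was so on none. LSC GFP- replicate 3 stood apart in endothelial genes, which is given beside Aqp1.

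Aqp1 was lower in LSC GFP+ cells on every array, Aqp3 was bright in both populations with overlapping values, and the other aquaporins differed between the populations by amounts close to the spread between arrays. Among these others, Aqp6 was lower in LSC GFP+ within each pair of equal replicate number at its brightest probe, although its populations overlapped. At the brightest probe, 9 of the 10 genes were well above background on all 6 arrays, and Aqp9 was the exception. Of these 9 genes, 8 had a mean below that of LSC GFP- cells and 1, Aqp11, a mean above it, while 13060 of all 25593 genes tested had a mean below. Scaled by the array median instead, Aqp2, Aqp4 and Aqp8 turned to the other side of 0, at 0.015, 0.039 and 0.0029. The count also rested on the choice of probe, as the probes of Aqp4, Aqp5 and Aqp11 lay on both sides of 0. Of the 12 aquaporin probes tested, 9 were below 0 and 3 above it. The median log2 difference of the 9 genes, LSC GFP+ minus LSC GFP-, was -0.26, beside -0.0069 over all genes. Apart from Aqp1, the size of the differences lay between 0.03 and 0.56 on the log2 scale. In bulk samples such as these, fewer cells of a type and less RNA per cell cannot be told apart.

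**Figure D1:**
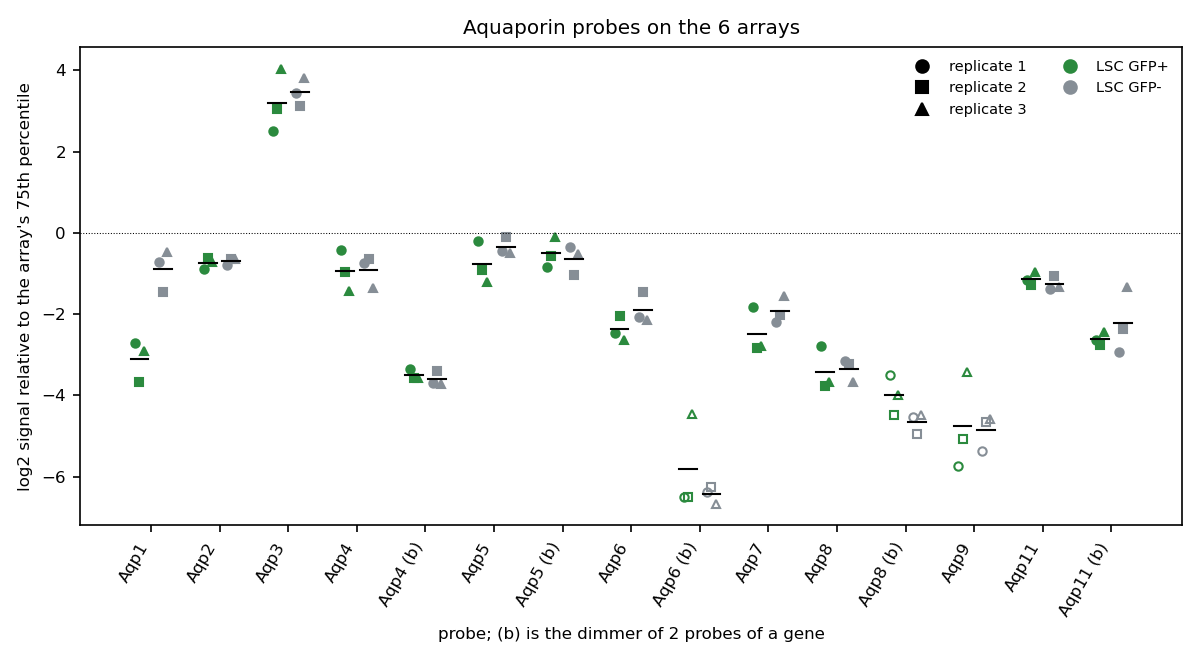
Log2 signal of each of the 15 aquaporin probes relative to the 75th percentile of its array (vertical axis), by probe (horizontal axis), with green points for LSC GFP+ and grey points for LSC GFP- samples, point shape for the replicate number and black bars for the means of 3 arrays. Open points are probes that were not well above background on all 3 arrays of either population. The populations separate at Aqp1, with LSC GFP+ samples between -3.67 and -2.70 and LSC GFP- samples between -1.46 and -0.46, and overlap at every other probe, while heights of different probes are not comparable.

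The genes were chosen by their family and with earlier results known, namely the log2 signals and detection marks of these same arrays in LSC GFP+ against LSC GFP- cells. The differences of the aquaporins are given as a description and without a test. For reference, 1 of the 9 genes, Aqp1, had values in LSC GFP+ that did not overlap those in LSC GFP- and were lower, and across all genes tested 5.37% did so in that direction and 11.9% in either direction. In limma, 0 of the 9 genes passed an adjusted p of 0.05 (Benjamini-Hochberg), as did 0.00% of all genes. At an unadjusted p under 0.05, 1 of 9 passed, beside 7.66% of all genes, and the methods' t-test gave the same counts, 0 and 1. Nothing is read from these counts about the aquaporins.

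Aqp1 is the water channel known from endothelium, red blood cells and kidney tubules. Its signal was -2.70, -3.67 and -2.91 in LSC GFP+ replicates 1, 2 and 3 and -0.72, -1.46 and -0.46 in LSC GFP- replicates 1, 2 and 3. All 3 LSC GFP- samples lay above all 3 LSC GFP+ samples, and in each population replicate 2 was the lowest. The means were -3.10 ± 0.51 (SD, n = 3) and -0.88 ± 0.52 (SD, n = 3), a log2 difference of -2.22 (SE 0.35), or 4.65-fold lower in LSC GFP+ cells. Within samples of equal replicate number the difference was -1.98, -2.22 and -2.45. On the linear scale of the scanner, Aqp1 read 61.3, 38.8 and 54.7 units in LSC GFP+ and 242, 148 and 306 units in LSC GFP-, and it was well above background on all 6 arrays. By size, this was the 29th largest decrease among the 25593 genes. A background correction that adds a constant of 50 to each signal, which shrinks the differences of dim probes, gave -1.39 in place of -2.22.

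The single Aqp1 probe reads the far end of the transcript, starting at position 2690 of the RefSeq transcript named in the array design, at chr6:55298480-55298539 on the plus strand of mm9. Its 60 bases hold 30% G and C, and its second stretch of 30 bases is shown because it carries the hexamer AATAAA, in capitals, the usual polyadenylation signal.
Aqp1 probe, bases 31 to 60: tcttatggtaagaaAATAAAggacaatgac
The hexamer was searched on the strand of the probe only, and occurred in 3 of the 15 aquaporin probes and in 10.1% of the 55681 probes. A probe placed here reads transcripts that extend to this end. None of the 15 aquaporin probes shares a run of 20 bases with the probe of another gene.

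Markers of some other cell types were lower in LSC GFP+ cells as Aqp1 was, and those of others were not. Of the 10 smooth muscle and pericyte markers, 8 were lower in LSC GFP+ at the unadjusted threshold of 0.05 in limma and none was higher, beside 4.28% of all genes lower and 3.38% higher, and none passed after adjustment. Their summed level ran from 7.72 to 11.5 times the 75th percentile in LSC GFP+ samples and from 22.3 to 42.8 times in LSC GFP- samples. A summed level adds the linear signals of a list, so its brightest probes weigh most and it does not stand for each marker. Acta2, smooth muscle actin, differed by -2.13 (SE 0.42, limma adjusted p = 0.140) on the log2 scale, and by -2.58, -2.25 and -1.56 within equal replicate numbers. Myh11, the smooth muscle myosin heavy chain, differed by -2.01 (SE 0.41, limma adjusted p = 0.151). The 3 Acta2 values of LSC GFP- lay above the 3 of LSC GFP+, as did those of Myh11.

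Of the 10 fibroblast markers, 5 were lower and 3 higher at the unadjusted threshold in limma and none after adjustment. Of all genes, 4.28% were lower and 3.38% higher at the unadjusted threshold. Their summed level was 28.6 to 34.7 times the 75th percentile in LSC GFP+ samples and 26.3 to 67.1 times in LSC GFP- samples, so the sums overlapped. Col1a1, a chain of type I collagen, differed by -2.18 (SE 0.37, limma adjusted p = 0.106), and Pdgfra, a growth factor receptor of mesenchymal cells, by -2.36 (SE 0.65, limma adjusted p = 0.303). The matrix genes Dcn, Fbln1 and Fbln2 were the 3 with higher means in LSC GFP+ cells, with log2 differences of 1.19, 0.90 and 1.30, and are named here after their values were seen. The purity of the sorted samples was not measured here, and the part of smooth muscle or fibroblast RNA in the Aqp1 difference was not tested.

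The endothelial and erythroid markers behaved differently. Of 12 endothelial markers 8 were tested, 1 (Vwf, named after its value was seen) was lower at the unadjusted threshold and none was higher, beside 4.28% of all genes lower and 3.38% higher. The summed level was 6.97 to 7.84 times the 75th percentile in LSC GFP+ and 7.19 to 9.26 times in LSC GFP- samples. The highest sum was that of LSC GFP- replicate 3, the only array on which Cdh5, the cadherin of endothelial junctions, was well above background. Pecam1, which encodes the CD31 antigen of the sort, was at -1.07 there and between -3.61 and -2.86 on the other 5 arrays. Aqp1 was also highest on that array, and without it the Aqp1 difference was -2.01 (SE 0.37). In replicates 1 and 2 Cdh5 was not well above background in either population, but 6 endothelial markers were so on all 6 arrays. The endothelial sums of replicates 1 and 2 were 7.84 and 6.97 times in LSC GFP+ and 7.19 and 7.31 times in LSC GFP-. Pecam1 and Cdh5 were dim in both replicates and weigh little in these sums, which do not measure endothelial content. The Aqp1 differences of replicates 1 and 2 were -1.98 and -2.22. The part of endothelial RNA in the Aqp1 values of any replicate was not tested. Without LSC GFP- replicate 3, 8 smooth muscle markers were lower, and 4 fibroblast markers were lower and 3 higher. The shares of all genes were then 3.90% lower and 3.59% higher, in an alternative added after the data were seen.

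Of 10 erythroid markers 5 were tested and none passed even the unadjusted threshold in limma, with summed levels of 9.29 to 10.3 times the 75th percentile in LSC GFP+ and 7.90 to 13.8 times in LSC GFP- samples. Rhag, a membrane protein gene of red blood cells named after its values were seen, was well above background on no array. Hba-a1, an alpha globin, ranged from -1.06 to 2.06 in LSC GFP+ and from -0.04 to 1.52 in LSC GFP-, and its lowest and highest values were both in LSC GFP+ samples. Ptprc, the CD45 gene of leukocytes, lay between -1.54 and -1.39 on all 6 arrays. None of 6 tested leukocyte markers or 5 tested markers of glia and neurons passed the unadjusted threshold. Of 9 luminal epithelial markers 1 was lower and 2 were higher, and of 3 tested mesothelial markers 1 was lower. Among 6 tested markers of seminal vesicle and Wolffian duct, 3 were lower and none higher at the unadjusted threshold, with summed levels of 3.34 to 8.57 times the 75th percentile in LSC GFP+ and 7.56 to 17.9 times in LSC GFP- samples. Among 9 basal epithelial markers 5 were higher and none lower, with sums of 227 to 244 times in LSC GFP+ and 171 to 181 times in LSC GFP- samples. Trp63, with mean log2 signals of 6.71 and 6.60, weighs heavily in these sums and differed by 0.11 (SE 0.18) with overlapping populations. Across all genes tested 4.28% were lower and 3.38% higher at the unadjusted threshold, the shares to set beside each count here. How these markers moved with Aqp1 beyond the shared populations was not tested.

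**Figure D2:**
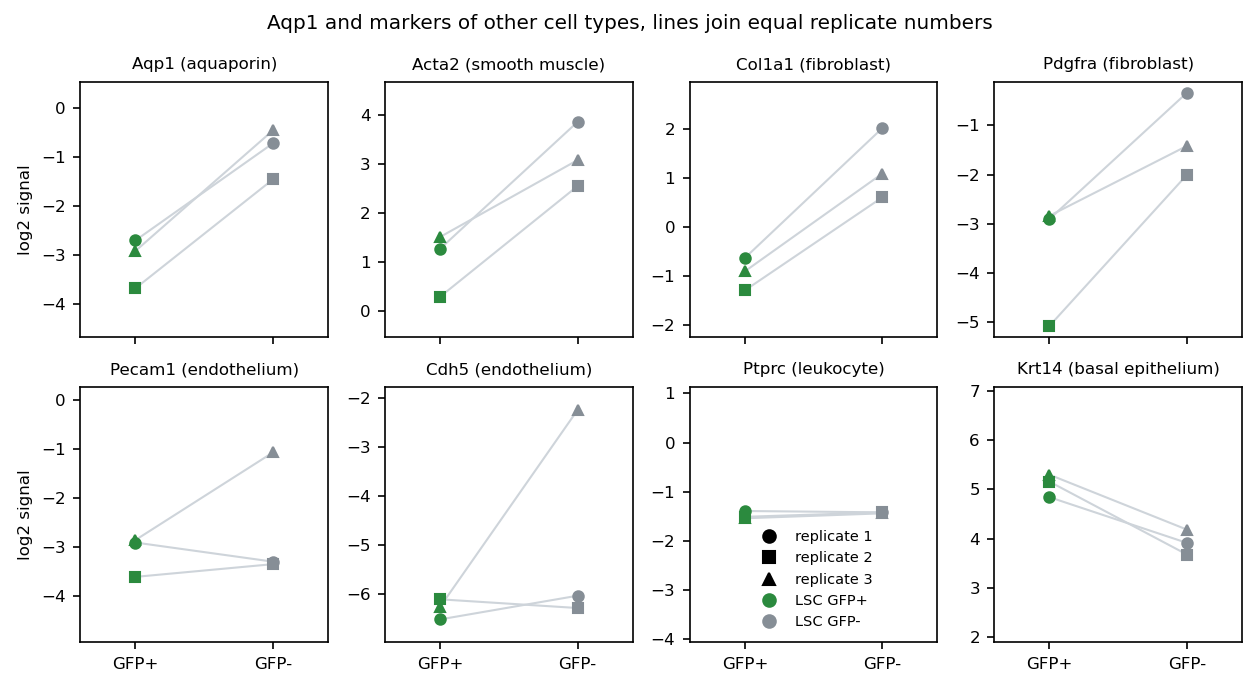
Log2 signal relative to the array's 75th percentile (vertical axes, each spanning the same number of log2 units around its gene) of Aqp1 and of 7 marker genes in LSC GFP+ (green) and LSC GFP- (grey) samples, with lines joining equal replicate numbers. Aqp1, Acta2, Col1a1 and Pdgfra are higher in LSC GFP- in all 3 pairs, Pecam1 and Cdh5 are high in LSC GFP- replicate 3, Ptprc is level, and Krt14 is higher in LSC GFP+ in all 3 pairs. Col1a1 and Pdgfra do not stand for all 10 fibroblast markers, of which 5 were lower and 3 higher in LSC GFP+ at the unadjusted threshold. The 3 higher ones, Dcn, Fbln1 and Fbln2, are not drawn.

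Likeness to Aqp1 was measured as the root mean square difference between centred log2 profiles over the 6 arrays, among 23773 other genes well above background on all of them. The nearest was Ddr2, a collagen receptor, at 0.26, whose log2 difference was -2.17. Pdlim3, a muscle protein of the actin cytoskeleton, followed at 0.31 with a log2 difference of -2.34. Rarres2, the gene of the secreted protein chemerin, was also at 0.31, with a log2 difference of -2.13. For scale, the Aqp1 profile itself had an SD of 1.30 over the 6 arrays. These are descriptions over 6 arrays that share the same populations.

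Aqp2, the water channel of the kidney collecting duct that responds to vasopressin, was nearly level. It read -0.88, -0.62 and -0.71 in LSC GFP+ and -0.78, -0.64 and -0.63 in LSC GFP- samples. The 6 values overlapped and spanned little of the log2 scale, and the difference was -0.05 (SE 0.19). The probe is shown whole because it crosses a splice junction, since its 60 bases stretch over 977 bases of the genome at chr15:99412578-99413554 on the plus strand of mm9, so that spliced transcript can match it over its full length.
Aqp2 probe, bases 1 to 60: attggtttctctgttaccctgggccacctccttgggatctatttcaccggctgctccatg
No base is capitalised in it.

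Aqp4, the water channel best known from astrocytes, had 2 probes, both well above background on all 6 arrays. The brighter read -0.41, -0.97 and -1.44 in LSC GFP+ and -0.74, -0.63 and -1.35 in LSC GFP- samples. Replicate 3 was the lowest sample of each population, and the population difference was -0.03 (SE 0.32). The dimmer probe differed by 0.10 (SE 0.20), with all 6 values between -3.71 and -3.36. At both probes the populations overlapped.

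Aqp5, the water channel of the apical membrane of salivary, lacrimal and airway glands, had 2 probes whose profiles ran against each other. The brighter read -0.20, -0.90 and -1.20 in LSC GFP+ and -0.43, -0.11 and -0.49 in LSC GFP- samples, a difference of -0.42 (SE 0.29). The other read -0.83, -0.58 and -0.10 in LSC GFP+ and -0.34, -1.03 and -0.52 in LSC GFP- samples, a difference of 0.13 (SE 0.27). Within LSC GFP+ the order of the replicates was reversed between the probes, and in each of the 3 pairs of equal replicate number the differences had opposite signs. They were 0.23, -0.80 and -0.71 at the brighter probe and -0.49, 0.46 and 0.43 at the other. The populations overlapped at both probes, and a single direction for Aqp5 cannot be given from these values.

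The probes read different stretches of the same RefSeq transcript, from position 945 at chr15:99424655-99424714 and from position 1428 at chr15:99425138-99425197, both on the plus strand of mm9. They are shown to place this disagreement, without capitals, the first whole and the second by its first 30 bases.
Aqp5 brighter probe, bases 1 to 60: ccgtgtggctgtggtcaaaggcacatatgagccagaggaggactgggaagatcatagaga
Aqp5 dimmer probe, bases 1 to 30: agatagatggttcgtcgagtgccatcttat
G and C made up 53.3% of the brighter and 45% of the dimmer probe.

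**Figure D3:**
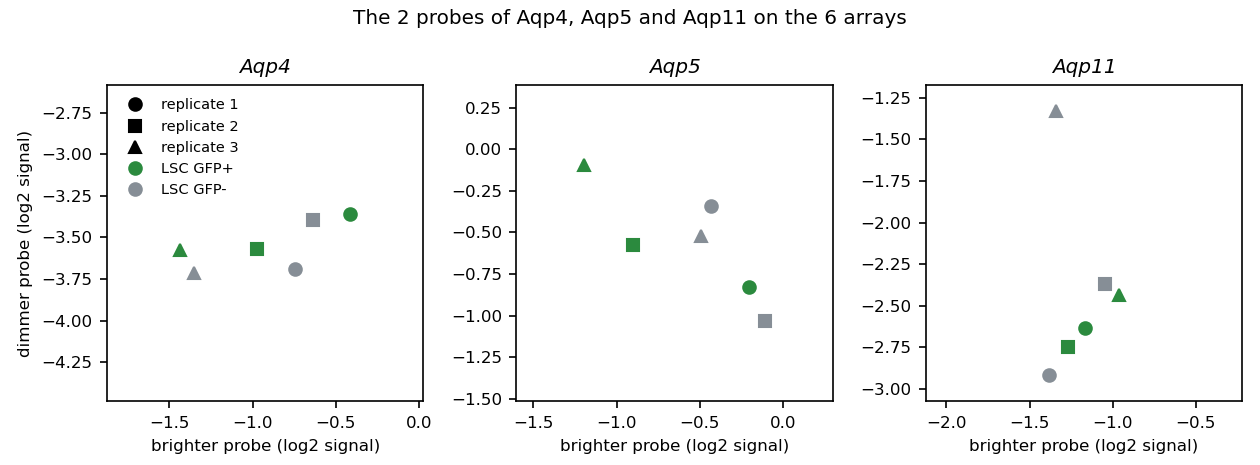
Log2 signals relative to the array's 75th percentile of the brighter probe (horizontal axis) and the dimmer probe (vertical axis) of Aqp4, Aqp5 and Aqp11, with a point for each of the 6 arrays in green for LSC GFP+ and grey for LSC GFP-, on equal scales. The Aqp5 points fall from upper left to lower right, from LSC GFP+ replicate 3 at -1.20 and -0.10 to LSC GFP- replicate 2 at -0.11 and -1.03, and at Aqp11 only LSC GFP- replicate 3 lies high on the dimmer probe, at -1.33.

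Aqp6, an intracellular channel of kidney intercalated cells that also passes anions, had a lower mean in LSC GFP+ at its brighter probe. The values were -2.45, -2.04 and -2.62 in LSC GFP+ and -2.08, -1.45 and -2.14 in LSC GFP- samples. The populations overlapped, although the LSC GFP+ sample was the lower in each pair of equal replicate number, with log2 differences of -0.37, -0.59 and -0.48. The difference of the means was -0.48 (SE 0.26), and with the replicate number as a block its SE was 0.13. In that fit 2 of the 9 aquaporin genes, Aqp1 and Aqp6, were lower at an unadjusted p under 0.05, beside 7.71% of all genes. The dimmer Aqp6 probe was well above background on no array, so the brighter result has no second probe to set beside it.

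Aqp8, a channel that passes water and ammonia and is known from pancreas and colon, lay overlapping in both populations. The brighter probe read -2.79, -3.78 and -3.66 in LSC GFP+ and -3.15, -3.22 and -3.67 in LSC GFP- samples, a difference of -0.07 (SE 0.30). The highest value was LSC GFP+ replicate 1. The dimmer probe was well above background in 2 LSC GFP+ samples and 1 LSC GFP- sample and was not tested. It read -3.50, -4.47 and -3.98 in LSC GFP+ and -4.52, -4.95 and -4.47 in LSC GFP- samples, higher in LSC GFP+ within each equal replicate number by 1.02, 0.48 and 0.49, unlike the brighter probe, with signals near background.

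Aqp3, the aquaglyceroporin of the basolateral membrane of many epithelia and of skin keratinocytes, was bright in both populations. It read 2.52, 3.06 and 4.04 in LSC GFP+ and 3.45, 3.14 and 3.81 in LSC GFP- samples. LSC GFP+ samples held both the lowest and the highest value, so the populations overlapped completely. The means were 3.21 ± 0.77 (SD, n = 3) and 3.46 ± 0.33 (SD, n = 3), and the difference was -0.26 (SE 0.39). Within equal replicate numbers the difference was -0.93, -0.08 and 0.24. Without LSC GFP+ replicate 1 the difference turned to 0.087, and without LSC GFP+ replicate 3 it was -0.67, so its sign and size rested on single arrays.

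The Aqp3 probe starts at position 1498 of its RefSeq transcript, at chr4:41039962-41040021 on the minus strand of mm9. Its first 30 bases are shown because it is the brightly read member that both populations share, and no base is capitalised.
Aqp3 probe, bases 1 to 30: atctggagctatgacccttgactgggggct
The genes with the nearest profile to Aqp3 were Hilpda, a lipid droplet protein of the hypoxia response, at a root mean square difference of 0.061, then Upk1b, a uroplakin of the urothelium, at 0.088, and Slc25a1, the mitochondrial citrate carrier, at 0.12. Their log2 differences between the populations were -0.26, -0.34 and -0.11, against an SD of the Aqp3 profile of 0.55.

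Aqp7, the glycerol channel known from adipocytes, was lower on average in LSC GFP+ cells but not in every pair. The values were -1.83, -2.83 and -2.77 in LSC GFP+ and -2.20, -2.02 and -1.55 in LSC GFP- samples. LSC GFP+ replicate 1 lay above 2 of the LSC GFP- samples, and the other 2 LSC GFP+ samples lay below all of them. The difference was -0.56 (SE 0.32), and within equal replicate numbers it was 0.37, -0.81 and -1.22. Adipoq, an adipocyte marker, differed by -0.48 (SE 0.26, limma adjusted p = 0.786), and of the 7 adipocyte markers 5 were tested and none passed the unadjusted threshold. Their summed level was 1.18 to 1.68 times the 75th percentile in LSC GFP+ and 1.75 to 1.98 times in LSC GFP- samples, and its part in the Aqp7 values was not tested.

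Aqp9, the glycerol and urea channel of liver, was well above background on 1 array alone, LSC GFP+ replicate 3. Its scanner signal was 38.3 units there and between 7.53 and 17.7 units on the other 5 arrays. No fold is given for Aqp9. The dim Aqp6 probe, although nowhere well above background, also read highest on that array, with 18.9 units against 4.16 to 5.49 units elsewhere.

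Aqp11, the divergent member of endoplasmic reticulum membranes, was near level at its brighter probe. The values were -1.16, -1.27 and -0.97 in LSC GFP+ and -1.38, -1.05 and -1.34 in LSC GFP- samples. The difference was 0.12 (SE 0.20) with overlapping populations. At the dimmer probe the values were -2.63, -2.75 and -2.43 in LSC GFP+ and -2.92, -2.37 and -1.33 in LSC GFP- samples, a difference of -0.40 (SE 0.38), and LSC GFP- replicate 3 was far above the other 5. The difference of the mean over both probes was -0.14, so the sign for Aqp11 depended on the probe.

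**Figure D4:**
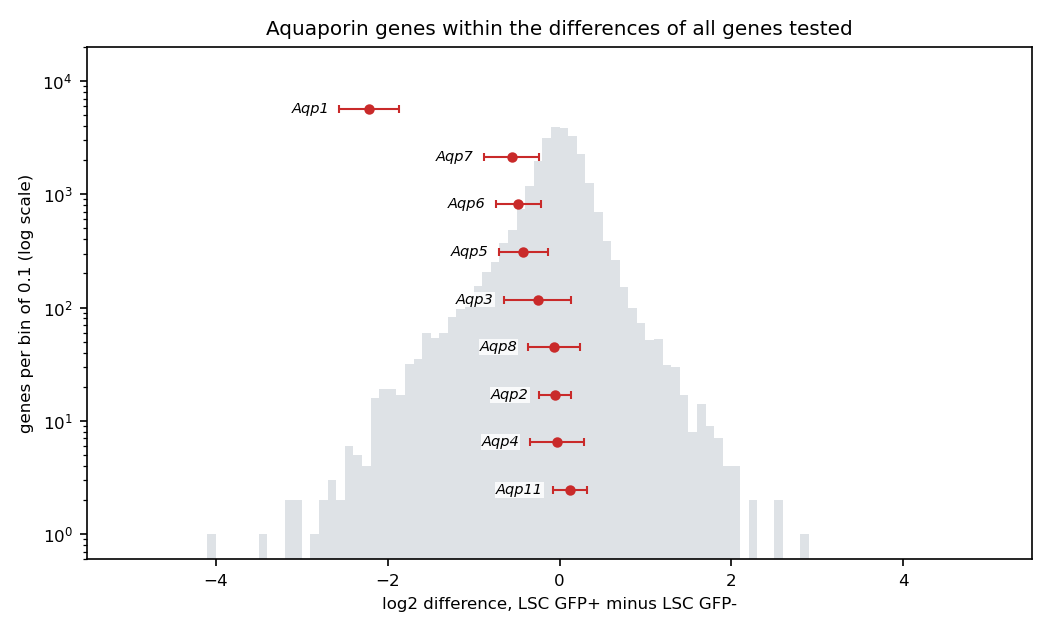
Grey bars count the 25593 genes tested by log2 difference, LSC GFP+ minus LSC GFP- (horizontal axis), in bins of 0.1 on a logarithmic vertical axis, and red points mark the 9 aquaporin genes with bars for the standard error, set at arbitrary heights. Aqp1 at -2.22 lies in the lower tail, and the other 8 lie between -0.56 and 0.12, within the bulk of all genes.

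Several aquaporins lie close together in the genome. On mm9 chromosome 15 the probes of Aqp2 and Aqp5 were 11.1 kb apart and those of Aqp5 and Aqp6 9.48 kb apart. The brighter probes in this cluster differed by -0.05, -0.42 and -0.48, with overlapping populations for each. On chromosome 4 the probes of Aqp7 and Aqp3 were 59.5 kb apart, and had differences of -0.56 and -0.26. The small nuclear RNA gene Gm25637 lay between these genes in the RefSeq table of GRCm38.p6. In LSC GFP+ replicate 3 Aqp3 was at its highest while Aqp7 was near its lowest, so their samples did not run in the same order.

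The remaining members of the channel family on the array were Mip, the lens fibre channel also called Aqp0, and Aqp12. Mip differed by -0.19 (SE 0.25) and Aqp12 by -0.07 (SE 0.26), and neither passed the unadjusted threshold in limma. Aqp12 was well above background in 2 LSC GFP+ and 3 LSC GFP- samples. Their median difference was -0.13, beside -0.0069 over all genes.

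Genes of glycerol handling are the metabolic partners of the aquaglyceroporins. Of 13 such genes, all tested, 2 were lower in LSC GFP+ at the unadjusted threshold of 0.05 in limma, none was higher and none passed after adjustment, beside 4.28% of all genes lower and 3.38% higher. Their median difference was -0.066, beside -0.0069 over all genes, and the count was 2 or 3 over the other settings. Gpd1, which interconverts glycerol phosphate and dihydroxyacetone phosphate, differed by -1.29 (SE 0.34, limma adjusted p = 0.279). Mgll, which releases glycerol from monoglycerides, differed by -0.82 (SE 0.22, limma adjusted p = 0.292). Both separated the populations without overlap and lower in LSC GFP+. Gpd2, the mitochondrial glycerol phosphate dehydrogenase, named after its values were seen, separated them in the other direction with a difference of 0.42 (SE 0.18, limma adjusted p = 0.647).

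Of 17 tested ion and solute transport genes of fluid secretion, 1 was lower and 2 were higher at the unadjusted threshold in limma, beside 4.28% of all genes lower and 3.38% higher. None passed after adjustment, with a median difference of -0.012. Slc14a1, a urea transporter, was at 0.19 ± 0.16 (SD, n = 3) in LSC GFP+ and -1.61 ± 0.31 (SD, n = 3) in LSC GFP- samples, a difference of 1.80 (SE 0.22, limma adjusted p = 0.0770). Car12, a carbonic anhydrase of epithelial membranes, differed by 1.70 (SE 0.27, limma adjusted p = 0.0989). Kcnj16, an inwardly rectifying potassium channel, differed by -1.39 (SE 0.46, limma adjusted p = 0.419). Each of these 3 genes separated the populations without overlap, and Slc14a1 and Car12 ran opposite to Aqp1. Cftr, the chloride channel, was well above background on no array and is named after its values were seen.

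Of 20 tested genes of osmotic response and cell volume, 2 were lower and none higher at the unadjusted threshold in limma, beside 4.28% of all genes lower and 3.38% higher. None passed after adjustment, with a median difference of -0.23. Akr1b3, the aldose reductase that makes the osmolyte sorbitol, differed by -1.26 (SE 0.44, limma adjusted p = 0.457) with overlapping populations. Stk39, a kinase that regulates chloride cotransporters, differed by -0.53 (SE 0.22, limma adjusted p = 0.595). The count of 2 ranged from 0 to 6 over the other settings, and it was 0 without LSC GFP- replicate 3 and also without LSC GFP+ replicate 1. The 6 came with the replicate block, where 5478 of all 36990 probes passed, against 2924 in the main fit.

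Of 13 tested genes of aquaporin anchoring and trafficking, 2 were lower and none higher at the unadjusted threshold in limma, beside 4.28% of all genes lower and 3.38% higher. None passed after adjustment, with a median difference of -0.087. Nedd4l, a ubiquitin ligase that acts on epithelial transporters, differed by -0.94 (SE 0.20, limma adjusted p = 0.170). Cav1, the caveolar coat protein, also differed by -0.94 (SE 0.30, limma adjusted p = 0.391). Cav1 is abundant in endothelium, smooth muscle and fibroblasts as well, and the values of those markers stand beside Aqp1. Avpr2, the vasopressin receptor that controls Aqp2 in kidney, was well above background in 1 LSC GFP+ and 2 LSC GFP- samples and was not tested, and is named after its values were seen.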

How the data were processed

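RNA was amplified, labelled with Cy3 and hybridised to 6 single-colour SurePrint G3 Mouse arrays, 1 per sample. Per the file headers, Feature Extraction 11.0.1.1 made the deposited intensity values, on the linear scale with background subtracted and a spatial trend removed. The submitters' processing notes name Agilent Feature Extraction 10.7.3.1. The deposited series table holds the same intensities rounded to 3 significant digits. All arrays came from a single slide and scan, so no batch could be compared.

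The log2 of each processed signal was taken and expressed relative to the array's own 75th percentile. Outlier spots (123 to 154 per array) were dropped and replicate spots averaged. The 36990 probes tested were measured on all 6 arrays and well above background on each of the 3 arrays of at least 1 population. The test was limma 3.58.1 (lmFit, eBayes; R 4.3.3), two-sided, with Benjamini-Hochberg adjustment over all probes tested, and the script was tested on simulated data. Standard errors are limma's moderated ones. A gene was taken at its probe with the highest mean signal. Symbols were updated through RefSeq accessions in a table of GRCm38.p6, with 26582 probes matched. No coordinate given here was taken from it, but its gene positions were used to list the genes between neighbouring aquaporins. Probe positions and sequences are those of the array design, on mm9.

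The members and gene lists were chosen with earlier results of these data known. Named genes were all members, Mip and Aqp12, up to 4 genes per list with the largest difference at an unadjusted p under 0.05, fixed cell type markers, the sorting and reporter genes, and the 3 nearest profiles, of which those of Aqp1 and Aqp3 are given. Precision is limited by the number of arrays, as the smallest exact permutation p for 3 against 3 is 0.1. The labels number the samples 1 to 3 in each population. Deviations of equal numbers from the population means correlated across probes with r of 0.43, 0.28 and 0.67, each over 0.1. Among unequal numbers r ran from -0.55 to 0.22, the latter for LSC GFP+ replicate 1 and LSC GFP- replicate 2. Equal numbers in the sample titles were read as pairs for the differences within replicate numbers, although the study's text states no pairing. The main limma fit, with its standard errors and p-values, did not use the pairing, and the replicate block was run as an alternative. Further alternatives were each array left out in turn, the mean over a gene's probes, an intensity trend in limma, the methods' t-test, 3 other detection filters, the rounded series table, scaling by the array median, quantile normalization, and normexp background correction (offset 50).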

Additional observations from a re-analysis of the deposited data

How the results depend on the processing

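The Aqp1 difference stayed below 0 in all 17 alternatives. It was -1.39 under normexp and ran from -2.50 without LSC GFP- replicate 2 to -1.93 without LSC GFP+ replicate 2. Over the alternatives Aqp5 (-0.71 to -0.15), Aqp6 (-0.65 to -0.26) and Aqp7 (-0.88 to -0.30) also stayed below 0, while Aqp2, Aqp3, Aqp4, Aqp8 and Aqp11 took both signs. Apart from the mean over probes, the Aqp5 values are those of its brighter probe. The dimmer Aqp5 probe, also well above background on all 6 arrays, was at 0.13, so no single direction is given for Aqp5. Without LSC GFP+ replicate 1 Aqp5 was -0.71 and Aqp7 -0.88, without LSC GFP+ replicate 3 Aqp5 was -0.21, without LSC GFP- replicate 2 Aqp6 was -0.26, and Aqp5 was -0.15 as the mean over its probes. Aquaporin genes without overlap numbered 1, beside 12.3% of all probes. With an array left out they numbered 1 to 3, beside 17.6% to 28.5% of all probes, as 2 arrays against 3 separate more easily. The count of 3 came without LSC GFP+ replicate 1, where the share of all probes was 28.5%. Over all probes, 1 passed the adjusted threshold of limma. There were 0 under normexp, without a filter, with probes required on all 6 arrays or on at least 1 array, in the methods' t-test, with an intensity trend and with the replicate block, 3 under quantile normalization and under scaling by the array median, and 0 to 4 with an array left out. At an unadjusted p under 0.05, 2924 probes passed, 2798 in the methods' t-test, 5478 with the replicate block that follows the pairing, and 2282 to 4061 with an array left out. Of the 2924 probes 57.3% were lower in LSC GFP+, against 49.1% under quantile normalization, 46.9% under scaling by the array median, 43.6% in the methods' t-test and 50.5% to 68.7% with an array left out. Probes without overlap numbered 4535, and 6567 to 10587 with an array left out. The osmotic response and cell volume list held 2 genes at the unadjusted threshold. It held 4 under normexp, in the methods' t-test and with an intensity trend, 5 under quantile normalization and 6 with the replicate block. It held 1 under scaling by the array median, without a filter and with probes required on at least 1 array, and 0 to 4 with an array left out. Of all 36990 probes, 2924 passed in the main fit, 2766 under normexp, 3274 under quantile normalization and 5478 with the replicate block. The cause of these shifts was not tested. Signals near background limit Aqp9, the dimmer probes of Aqp6 and Aqp8, and the size of the Aqp1 difference.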
